A study of Mus musculus with 12 samples.

Results

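Hypoxia response genes are described here as a set of 9 members, Hif1a, Vegfa, Ndrg1, Cox4i2, Egln3, Bnip3, Ankrd37, Pdk1 and Slc2a1, taken by name from the 32285 genes counted in single nuclei of mouse liver. The members were taken by name, with earlier results of these data known, and all 9 were found in the files and passed the filter on low counts in every comparison. Nuclei came from 8 wild-type male mice of 10 to 12 weeks on chow, and each mouse gave a Liver sample (L), a Cell Suspension sample (CS) and a Primary Hepatocytes sample (PH), so that each group held 8 samples. The sample labels name the strain C57BL6J, whereas the description of the study names the C57BL/6NTac substrain.

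For L, the liver was flushed with a calcium-free solution, and a lobe was then tied off, cut away and frozen. For CS, the rest of the liver was digested with collagenase and the cells spun down gently, which favours hepatocytes, and frozen. For PH, the same cells were cultured for 24 h on collagen-coated plastic in medium with little serum, dexamethasone and insulin and then lifted with trypsin. The labels give no oxygen level for any group, so the groups compare tissue, isolated cells and cultured cells and not oxygen levels. Levels are given in CPM, that is the UMIs (unique molecular identifiers, each standing for 1 captured RNA molecule) of a gene relative to all UMIs of the nuclei of that cell type in that sample, scaled to a common total, with spliced, unspliced and ambiguous UMIs added.

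Cells answer low oxygen mainly through hypoxia-inducible factors (HIF), pairs of an oxygen-regulated alpha subunit, such as the product of Hif1a, with a stable partner, Arnt. With oxygen, prolyl hydroxylases such as Egln3 mark the alpha subunit for destruction through Vhl, so HIF activity is set mostly at the level of protein and can change with no change in Hif1a RNA. Known HIF targets move a cell towards glycolysis, away from respiration and towards the growth of vessels, and the liver lobule itself lies along an oxygen gradient that falls from the portal to the central vein.

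The files held 53467 nuclei, of which 42467 were hepatocytes (15000 in L, 12634 in CS and 14833 in PH) and 5435 were endothelial (2474, 1152 and 1809). Cell types followed the deposited annotation, and nuclei annotated only as cultured cells were placed by their markers: clusters 0, 1, 14 and 17 with hepatocytes, 12 with endothelium and 27 with stellate cells, while cluster 8 stayed unnamed and was left out. The class of each cell type in PH was thus made of other clusters than in L and CS. The 9 hepatocyte markers summed to 11363 to 16048 CPM in L hepatocytes, 14574 to 18452 in CS and 2954 to 7291 in PH, and the 9 endothelial markers to 11326 to 14655, 8880 to 14180 and 5019 to 8616 CPM in endothelial nuclei. Hepatocyte sums held 2065229 to 29018248 UMIs per sample and endothelial sums 95289 to 2578536, with the fewest in PH of mouse 7 (29 nuclei). Of the nuclei's barcodes 53128 were distinct and 337 occurred in more than 1 pool.

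Samples were sequenced in 6 pools of 4. Pools 1 and 6 held L and CS but no PH samples, pool 3 and pool 4 held no L, and only pools 2 and 5 held both L and PH, so L and PH were compared largely between pools. In droplets with fewer than 100 UMIs, which hold RNA from outside nuclei, Ndrg1 stood at 331, 269 and 155 CPM in pools 3, 4 and 5 and at 59.2 in pool 2, against 16.3 and 12.3 in pools 1 and 6. Cox4i2 stood at 85.8, 68.4, 28.2 and 5.22 CPM, against 0 and 0. Free RNA of these genes was thus abundant in the pools with most PH samples. One hashtag is written CD2 in the files and was read as CS of mouse 2, since its group is CS and that sample has no other hashtag.

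The promoter sequences are shown because HIF binds a short core, ACGTG or GCGTG, so that the letters show where a core lies in front of members that differ in behaviour below. RefSeq promoters of GRCm38.p6 were read for the 200 bases from 250 to 51 before each RefSeq start. For Ankrd37 and Hif1a these windows lie inside the GENCODE gene spans given below, whose starts differ from the RefSeq starts. Cores on either strand are in capitals, so that CACGT and CACGC are the same cores on the other strand and overlapping cores count separately. A core was found in 31.6% of all 32851 promoters of this length, at least 2 in 11.6% and at least 3 in 3.78%. Of the 9 members 7 had an entry. Bnip3 and Ankrd37 are printed for their dense cores, and Slc2a1 and Pdk1 because each has a single core while their levels behaved differently in culture.
Bnip3 (GRCm38.p6 chr7:138909557-138909756, minus strand): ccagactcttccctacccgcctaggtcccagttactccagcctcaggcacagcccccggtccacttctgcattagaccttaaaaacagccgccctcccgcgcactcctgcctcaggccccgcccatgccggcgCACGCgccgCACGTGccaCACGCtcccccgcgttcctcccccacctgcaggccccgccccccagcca
Ankrd37 (GRCm38.p6 chr8:45999901-46000100, minus strand): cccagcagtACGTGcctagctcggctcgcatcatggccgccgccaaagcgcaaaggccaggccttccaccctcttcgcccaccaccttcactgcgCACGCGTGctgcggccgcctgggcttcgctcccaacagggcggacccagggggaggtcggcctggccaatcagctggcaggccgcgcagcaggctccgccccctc
Slc2a1 (GRCm38.p6 chr4:119108495-119108694, plus strand): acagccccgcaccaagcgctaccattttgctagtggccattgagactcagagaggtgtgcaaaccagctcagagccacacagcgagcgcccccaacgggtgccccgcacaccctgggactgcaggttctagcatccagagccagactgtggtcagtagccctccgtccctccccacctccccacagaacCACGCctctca
Pdk1 (GRCm38.p6 chr2:71872974-71873173, plus strand): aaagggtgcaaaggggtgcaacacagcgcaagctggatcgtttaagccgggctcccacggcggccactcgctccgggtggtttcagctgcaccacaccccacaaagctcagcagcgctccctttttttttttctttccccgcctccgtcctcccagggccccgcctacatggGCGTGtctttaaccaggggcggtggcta

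Bnip3 held 4 cores close together and Ankrd37 3, of which a pair overlap. Hif1a held 3 cores and Egln3 1. The main start of Vegfa held none in this window and its second start 2, and the second start of Pdk1 held none. Ndrg1 and Cox4i2 had no entry. These matches describe letters only and are not measured binding sites.

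In hepatocytes, culture went with higher levels of most members, and the size of the difference varied widely between them. Of the 9 members 7 rose from L to PH and none fell, while of all 26521 genes tested 27.4% were called higher and 26.7% lower (edgeR, adjusted p of 0.05). From CS to PH 7 rose and 1, Vegfa, fell, while of all genes 27.6% were called higher and 24.0% lower. The median log2 difference of the members was 2.06 from L to PH and 1.39 from CS to PH, and that of all genes 0.04 and 0.01. Cox4i2 and Ndrg1 changed most, Slc2a1, Ankrd37 and Hif1a by about 4-fold to 5-fold over L, Egln3 and Bnip3 less, and neither Vegfa nor Pdk1 was called between L and PH. These comparisons share the PH samples and are not independent of each other.

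The regulator Hif1a, which encodes an oxygen-regulated HIF subunit, was measured in L hepatocytes at 11.7 to 20.04 CPM (median 14.4). In CS it ranged from 16.1 to 30.3 (median 27.1) and in PH from 48.6 to 77.5 CPM (median 62.8), so that PH lay above every L and CS sample. It was 4.17-fold higher in PH than in L (log2 difference 2.06 ± 0.12 SE, edgeR, adjusted p = 5.64e-15). Its antisense neighbour Gm15283 overlaps it and stood at 27.4, 9.37 and 66.5 CPM in L, CS and PH hepatocytes, and since counting by strand is not stated, reads of this pair may not be fully separate. Gm49321 overlaps Hif1a on the same strand and is not among the genes counted. Egln3, which encodes a prolyl hydroxylase that marks HIF for destruction and is itself a HIF target, ran from 11.8 to 37.1 CPM in L (median 26.4), from 13.8 to 49.9 in CS (median 26.6) and from 29.5 to 101 in PH (median 75.1). It was 3.09-fold higher in PH than in L (log2 1.63 ± 0.28 SE, edgeR, adjusted p = 7.92e-06), although the lowest PH sample, that of mouse 8 at 29.5 CPM, lay within the range of L. Other processing settings gave log2 differences of 1.09 to 2.97.

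Vegfa, which encodes the main growth factor for vessels, went against the other members. It ranged from 171 to 297 CPM in L hepatocytes (median 234), from 398 to 540 in CS (median 446) and from 139 to 275 in PH (median 203). Every CS sample lay above every L and PH sample, and L and PH overlapped. Vegfa fell by 1.18 on the log2 scale from CS to PH (SE 0.14, edgeR, adjusted p = 2.84e-08), while the difference of PH from L was -0.20 ± 0.14 (adjusted p = 0.253). That sign depended on scaling: with plain library totals it was 0.34 (adjusted p = 0.0528), and in unspliced counts alone -0.998 (adjusted p = 6.23e-06).

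Among the genes of glucose use and respiration, Slc2a1, which encodes the glucose transporter GLUT1, ranged from 9.13 to 19.5 CPM in L (median 14.1), from 10.0 to 26.8 in CS (median 20.4) and from 66.5 to 93.4 in PH (median 75.3). PH stood apart from both other groups and was 5.48-fold above L (log2 2.45 ± 0.16 SE, edgeR, adjusted p = 4.07e-14). Cox4i2, which encodes the oxygen-responsive isoform of a cytochrome c oxidase subunit, was close to absent in tissue, at 0.205 to 1.53 CPM in L (median 0.456). It ran from 1.27 to 6.51 in CS (median 2.08) and from 75.2 to 139 in PH (median 93.6), which was 151-fold above L (log2 7.24 ± 0.34 SE, edgeR, adjusted p = 2.05e-17). Other processing settings gave log2 differences of 5.38 to 7.80. The Cox4i2 UMIs were almost all unspliced, 14428 of 14503 in PH (56 spliced) and all 84 in L, while of all genes' UMIs in PH hepatocytes 64.7% were. The fold thus describes mostly unspliced RNA. Pdk1, which encodes a kinase that holds back the entry of pyruvate into respiration, stayed within overlapping ranges, 60.6 to 98.4 CPM in L (median 77.9), 48.4 to 94.8 in CS (median 66.4) and 64.2 to 98.2 in PH (median 84.2). Its difference of PH from L was 0.05 ± 0.13 on the log2 scale (edgeR, adjusted p = 0.776), but 0.58 (adjusted p = 0.000998) with plain library totals and 0.31 (adjusted p = 0.0319) in spliced counts alone.

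Bnip3, which encodes a mitochondrial outer membrane protein that promotes the removal of mitochondria, ranged from 37.4 to 83.7 CPM in L (median 53.3), from 19.8 to 77.8 in CS (median 34.9) and from 57.9 to 155 in PH (median 102). The groups overlapped, and PH was 1.83-fold above L (log2 0.87 ± 0.23 SE, edgeR, adjusted p = 0.00204), which with pool as a covariate was 0.47 (adjusted p = 0.266). Ndrg1, a gene induced by hypoxia and other stress, ran from 1.33 to 9.25 CPM in L (median 3.50), from 2.60 to 32.5 in CS (median 13.98) and from 282 to 461 in PH (median 392), and was 82.6-fold higher in PH than in L (log2 6.37 ± 0.41 SE, edgeR, adjusted p = 3.28e-14). Other processing settings gave log2 differences of 5.08 to 6.93. Relative to Alb UMIs, Ndrg1 in L hepatocytes lay above the free RNA of its pool in 0 of 8 samples. Ankrd37, a small ankyrin repeat gene known as a HIF target, was low throughout, at 1.13 to 3.78 CPM in L (median 1.55), 0.853 to 2.48 in CS (median 1.43) and 4.44 to 16.7 in PH (median 9.41). PH lay above all L and CS samples, by 4.89-fold over L (log2 2.29 ± 0.24 SE, edgeR, adjusted p = 1.95e-09). Ankrd37 overlaps Ufsp2 and Lrp2bp on the other strand, at 31.6 and 6.57 CPM in L and 29.3 and 15.4 in PH.

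**Figure D1:**
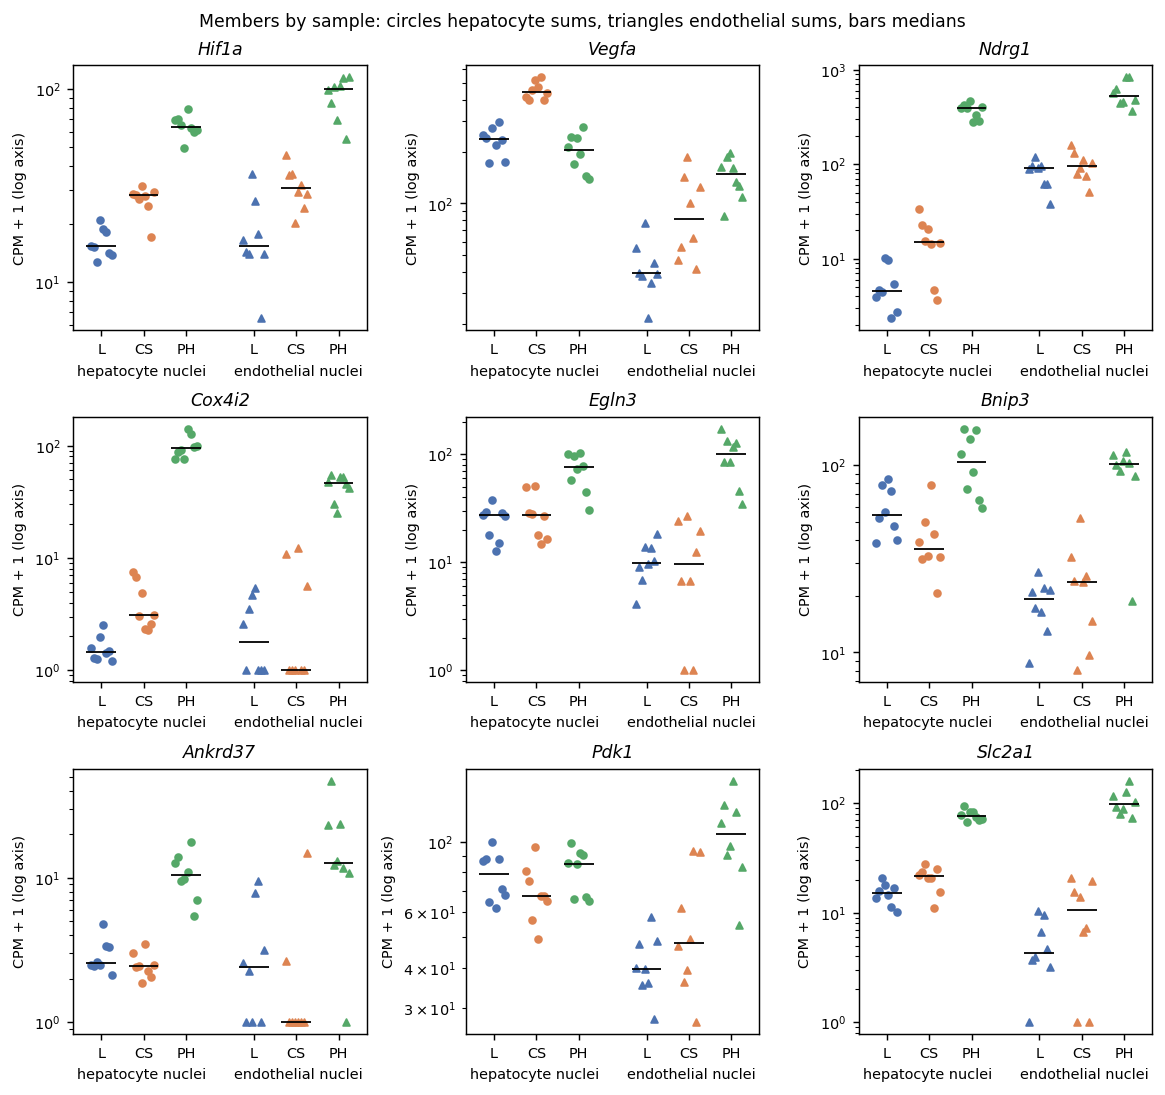
Level of each member in every sample, in CPM after TMM scaling with 1 added on a log axis, for L, CS and PH. Circles are hepatocyte sums, triangles endothelial sums and bars group medians. Ndrg1 and Cox4i2 in hepatocytes show the widest distance of PH from L, and hepatocyte Vegfa is the member with CS on top.

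Relative to CS, Cox4i2 and Ndrg1 again differed most. The log2 difference of PH from CS in hepatocytes was 4.92 ± 0.30 for Cox4i2, 4.56 ± 0.38 for Ndrg1, 2.71 ± 0.28 for Ankrd37, 1.97 ± 0.16 for Slc2a1 and 1.28 ± 0.12 for Hif1a (SE). It was 1.39 ± 0.24 for Bnip3 and 1.35 ± 0.28 for Egln3, whose groups overlapped (edgeR, largest adjusted p = 0.000128). Pdk1 differed by 0.22 ± 0.13 (edgeR, adjusted p = 0.174), by 0.91 (adjusted p = 3.55e-06) with plain library totals, by 0.60 (adjusted p = 0.000184) in spliced counts alone and by 0.35 (adjusted p = 0.0344) without mouse 4. TMM scaling factors of hepatocyte sums were 1.24 to 1.49 in PH, 0.742 to 0.931 in CS and 0.812 to 1.01 in L, and without them the median of all genes moved from 0.04 to 0.57 between PH and L and from 0.01 to 0.69 between PH and CS.

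In PH hepatocytes, relative to Alb UMIs, all 9 members lay above their pool's free RNA in 8 of 8 samples (Alb itself was lower in PH, so these ratios are not levels). Markers of other cells moved with the groups as well. In hepatocyte nuclei of L, CS and PH, the 8 stellate markers summed to 17.4 to 43.9, 14.7 to 43.0 and 47.2 to 626 CPM, and the 9 endothelial markers to 33.5 to 53.3, 35.2 to 69.2 and 84.5 to 112 CPM. Their part in the result was not tested.

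Isolation without culture was followed by fewer differences. From L to CS 5 members rose in hepatocytes (Cox4i2, Ndrg1, Vegfa, Hif1a and Slc2a1) and none fell, while of all genes 7.69% were called higher and 13.8% lower. The members' median log2 difference was 0.48 and that of all genes 0.01. Vegfa was 1.97-fold higher (log2 0.98 ± 0.14 SE, edgeR, adjusted p = 5.16e-06) and was the only member whose groups did not overlap. The share of all genes whose groups did not overlap is not given here. Hif1a was 1.72-fold higher (log2 0.78 ± 0.12, adjusted p = 1.79e-05), Cox4i2 4.98-fold (2.32 ± 0.36, adjusted p = 1.42e-05), Ndrg1 3.51-fold (1.81 ± 0.36, adjusted p = 0.000324) and Slc2a1 1.40-fold (0.48 ± 0.16, adjusted p = 0.0279). The other 4 were not called: Egln3 at 0.28, Pdk1 at -0.17, Ankrd37 at -0.42 and Bnip3 at -0.52 (edgeR, smallest adjusted p = 0.125). Bnip3 was called lower with mouse as a block (-0.55, adjusted p = 0.03), with pool as a covariate (-0.85, adjusted p = 0.0348) and with library totals (-0.67, adjusted p = 0.0286). Egln3 was called higher in spliced counts alone (1.299, adjusted p = 0.0034).

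The rise of Ndrg1 in CS went with the pools that held PH samples. In the 2 CS samples of pools 1 and 6 Ndrg1 stood at 2.60 and 3.68 CPM, next to 13.4 to 32.5 in the 6 CS samples pooled with PH. In L it stood at 1.33 to 4.35 CPM in the 6 samples without PH in their pool and at 8.74 and 9.25 in the 2 samples with it. Per 1000 Alb UMIs, Ndrg1 in CS hepatocytes had a median of 4.45 and in the free RNA of the same pools 33.9, and none of the 8 samples lay above its free RNA, while for Cox4i2 2 of 8 did. Within pools 1 and 6 alone the difference of CS from L was 0.23 for Ndrg1 (edgeR, adjusted p = 0.806) and 1.79 for Cox4i2 (adjusted p = 0.0594). With pool as a covariate that of Ndrg1 was 0.79 (adjusted p = 0.0577), while Cox4i2 kept its call. Cox4i2 stood at 1.27 and 1.56 CPM in the CS samples of pools 1 and 6 and at 1.32 to 6.51 in the other 6, so that these overlapped.

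Vegfa did not move with the pools in this way. It stood at 399 and 540 CPM in the CS samples of pools 1 and 6 and at 398 to 521 in the other 6, and 7 of 8 CS samples lay above their free RNA per Alb UMI, with medians of 130 and 98.8 per 1000, while in L 0 of 8 did. The same count in CS was 4 of 8 for Hif1a and 2 of 8 for Slc2a1. Hif1a in CS ran at 16.1 and 23.9 CPM in pools 1 and 6 and at 26.0 to 30.3 in the others, and its difference within pools 1 and 6 was 0.59 (edgeR, adjusted p = 0.103). In spliced counts alone the difference of CS from L for Hif1a was 0.18 (adjusted p = 0.404). Slc2a1 lost its call within pools 1 and 6 (0.23, adjusted p = 0.727), with pool as a covariate (0.26, adjusted p = 0.33), in unspliced counts (0.45, adjusted p = 0.0569), with library totals (0.32, adjusted p = 0.147) and without mouse 1, 5 or 7 (adjusted p = 0.083, 0.0656 and 0.058).

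Endothelial nuclei, which line the sinusoids and larger vessels, carried over into culture, and in them all 9 members rose in PH. Of all 18279 genes tested 15.4% were called higher and 18.4% lower from L to PH, and 9.33% higher and 10.7% lower from CS to PH (edgeR, adjusted p of 0.05). The members' median log2 difference was 2.60 over L and 2.49 over CS, and that of all genes -0.01 and 0.07. Slc2a1, Cox4i2 and Egln3 rose most over L, and Pdk1 and Vegfa, which were not called in hepatocytes over L, rose too.

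Hif1a in endothelial nuclei ranged from 5.51 to 35.1 CPM in L (median 14.4), from 19.2 to 44.3 in CS (median 29.6) and from 53.7 to 114 in PH (median 99.3). Egln3 ranged from 3.11 to 17.4 CPM in L (median 8.94), from 0 to 25.6 in CS (median 8.67) and from 33.3 to 171 in PH (median 99.8), which was 11-fold above L (log2 3.46 ± 0.30 SE, edgeR, adjusted p = 9.93e-13). Vegfa ran from 20.5 to 75.8 CPM in L (median 38.3), from 40.5 to 186 in CS (median 80.5) and from 83.7 to 196 in PH (median 146). Both Hif1a and Egln3 were above L in every PH sample, and the Vegfa difference of 3.54-fold (log2 1.83 ± 0.23, edgeR, adjusted p = 2.18e-08) was 0.82 (adjusted p = 0.0664) in unspliced counts alone.

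Slc2a1 in endothelial nuclei ranged from 0 to 9.24 CPM in L (median 3.31), from 0 to 19.7 in CS (median 9.49) and from 71.6 to 158 in PH (median 96.6), 25.9-fold above L (log2 4.70 ± 0.30 SE, edgeR, adjusted p = 4.21e-16). Other processing settings gave log2 differences of 3.54 to 5.09. Cox4i2 was at 0 in 4 L and 5 CS samples, and ran from 24.0 to 53.2 CPM in PH (median 45.7). Pdk1 ran from 26.7 to 56.8 CPM in L (median 38.8), from 26.0 to 92.6 in CS (median 47.1) and from 53.7 to 154 in PH (median 105), 2.74-fold above L with a small overlap (log2 1.45 ± 0.20, edgeR, adjusted p = 7.34e-08).

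Ndrg1 was already well expressed in L endothelium, at 36.9 to 119 CPM (median 89.6), stood at 49.1 to 159 in CS (median 95.5) and reached 367 to 834 in PH (median 522), 7.08-fold above L (log2 2.82 ± 0.20 SE, edgeR, adjusted p = 1.26e-14). Bnip3 ran from 7.77 to 25.9 CPM in L (median 18.2), from 7.03 to 51.3 in CS (median 22.9) and from 17.9 to 117 in PH (median 100.4), where the lowest value was that of mouse 7. Its log2 difference of PH from L was 2.49 ± 0.23 (edgeR, adjusted p = 5.52e-12). Ankrd37 rested on 21 UMIs in all L, 4 in all CS and 57 in all PH endothelial nuclei, and its difference of 2.60 ± 0.51 from L (adjusted p = 6.19e-05) was 1.34 with pool as a covariate (adjusted p = 0.263) and 1.13 with every sum thinned to the lowest total (adjusted p = 0.334).

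From CS to PH the endothelial log2 differences ran from 3.29 for Slc2a1 and 3.18 for Cox4i2 to 1.03 for Pdk1 and 0.77 for Vegfa. The Vegfa call was lost with DESeq2 (0.73, adjusted p = 0.0528), with thinning (0.56, adjusted p = 0.228) and without mouse 1, 6 or 7 (0.60, 0.74 and 0.66, adjusted p = 0.108, 0.0513 and 0.0691), and unspliced counts gave -0.09 (adjusted p = 0.915). Ankrd37 was lost with thinning (1.76, adjusted p = 0.169). From L to CS only Vegfa (1.06 ± 0.26 SE, edgeR, adjusted p = 0.00884) and Hif1a (0.92 ± 0.27, adjusted p = 0.0404) were called, both higher, while of all genes 2.03% were called higher and 1.87% lower. Neither call held with pool as a covariate (Vegfa 0.92, adjusted p = 0.0784), and within pools 1 and 6 Vegfa stood at 0.25 (adjusted p = 0.871). In spliced counts alone both calls were lost (0.50 and 0.56), and Bnip3, at 0.43 in all counts, was called (1.74, adjusted p = 0.0296). The Vegfa call was also lost without mouse 3, 5 or 8 (0.93, 0.89 and 0.95, adjusted p = 0.0545, 0.0585 and 0.051), and that of Hif1a without mouse 1, 2, 3, 6, 7 or 8 (0.76 to 0.93, adjusted p = 0.0503 to 0.222). Slc2a1 missed the threshold at 1.40 ± 0.46 (edgeR, adjusted p = 0.0747) and passed it with DESeq2 (1.55, adjusted p = 0.01), with edgeR's filterByExpr in place of the count minimum (1.49, adjusted p = 0.046) and without mouse 7 (1.61, adjusted p = 0.0281).

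**Figure D2:**
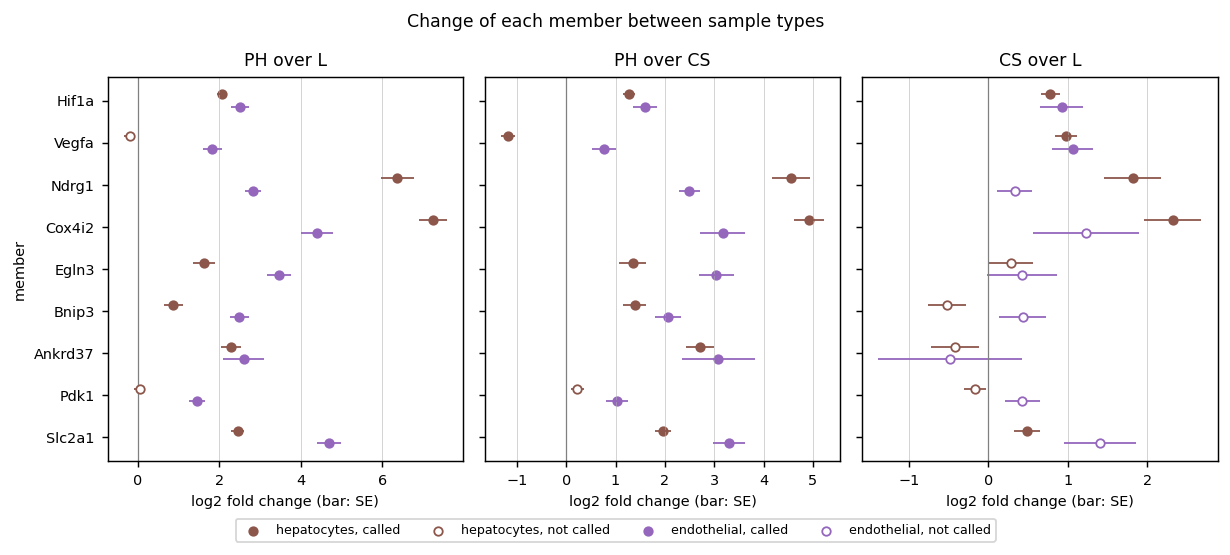
Log2 difference of each member with its SE for PH over L, PH over CS and CS over L, in hepatocytes (brown) and endothelial nuclei (purple). Filled points were called (edgeR, adjusted p of 0.05) and the line at 0 marks no difference. Endothelial points lie right of hepatocyte points for Slc2a1, Egln3, Bnip3, Vegfa and Pdk1 in PH over L and left of them for Ndrg1 and Cox4i2.

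Hepatocyte RNA was present in the endothelial nuclei. The 9 hepatocyte markers stood there at 12.9% to 46.1% of their hepatocyte level in L (median 24.3%), 16.4% to 55.5% in CS (median 23.6%) and 37.8% to 139% in PH (median 75.8%). Relative to Alb UMIs, members in PH endothelial nuclei lay above the free RNA of their pool in 8 of 8 samples for 7 members, in 7 for Ankrd37 and in 5 for Vegfa. Alb averaged 1218 CPM in these nuclei by library totals, beside 2563 to 3378 CPM in that free RNA, so these ratios are not levels. The margin differed: per 1000 Alb UMIs the medians were 566 in the nuclei and 105 in the free RNA for Ndrg1, but 37.5 and 26.7 for Cox4i2 and 131 and 102 for Vegfa. Lying above free RNA cannot set apart RNA carried over from PH hepatocytes, since each of these pools also held L or CS samples. Per 1000 Alb UMIs, medians in PH endothelial nuclei and PH hepatocytes were 79.2 and 63.5 for Hif1a and 87.7 and 82.2 for Egln3. They were 92.0 and 75.5 for Slc2a1, 98.3 and 80.8 for Pdk1, 566 and 383 for Ndrg1 and 9.08 and 9.46 for Ankrd37. For Bnip3, Vegfa and Cox4i2 they were 78.0 and 103, 131 and 185, and 37.5 and 101. The part of hepatocyte RNA in the size of the endothelial differences was not tested beyond these values.

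The members also differed between the cell types within each sample. In L, endothelial nuclei were called higher than hepatocytes of the same sample in Ndrg1 and Cox4i2 and lower in Vegfa, Slc2a1, Bnip3, Egln3 and Pdk1, while of all 26796 genes 17.2% were called higher and 28.1% lower. The Cox4i2 call rested on 16 UMIs in all L endothelial nuclei, with 4 samples at 0. By library totals Cox4i2 was higher in the endothelium in 4 of 8 L samples. In CS 1 member was higher and 5 were lower (11.4% and 22.8% of all genes), and in PH none was higher and 3 were lower (13.3% and 18.0%). Ndrg1 set the cell types apart most in tissue: the endothelial level was a median of 2336% of the hepatocyte level in L (1045% to 4932%, higher in 8 of 8 samples), 739% in CS and 117% in PH (77.2% to 229%, higher in 5 of 8). These shares use library totals with no TMM scaling. In the L endothelium, Ndrg1 per 1000 Alb UMIs had a median of 98.6, next to 6.38 in the free RNA, and all 8 samples lay above it. Alb averaged 921 CPM in these nuclei by library totals, so these ratios are not levels.

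Among the called differences of endothelial nuclei from hepatocytes in L, Ndrg1 had a log2 difference of 3.89 ± 0.18 (SE, edgeR, adjusted p = 1.18e-39), Vegfa of -2.90 and Slc2a1 of -2.28. In PH Vegfa (-0.84, adjusted p = 2.85e-06), Cox4i2 (-1.63, adjusted p = 7.9e-14) and Bnip3 (-0.46, adjusted p = 0.0182) stayed lower, the last not with RLE scaling (adjusted p = 0.156) or library totals (adjusted p = 0.073). Ndrg1, at 0.22 ± 0.20 in PH, was not called (adjusted p = 0.276), but was with RLE scaling (0.39, adjusted p = 0.0498). For Slc2a1 the PH difference was 0.10 (adjusted p = 0.665), and -0.90 (adjusted p = 1.49e-05) in unspliced counts alone. The call of Cox4i2 in L (1.18 ± 0.48, adjusted p = 0.0344) was lost without mouse 3 (0.76, adjusted p = 0.3) or mouse 5 (1.22, adjusted p = 0.0945) and in unspliced counts (0.98, adjusted p = 0.0828). In CS the calls of Bnip3, Pdk1 and Slc2a1 were lost with library totals (-0.59, -0.19 and -0.72, adjusted p = 0.0721, 0.472 and 0.0931).

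The change from L to PH was tested for a difference between the cell types in the same fit, with the sample as a block, as the signed endothelial change minus the signed hepatocyte change. This difference was positive for Slc2a1 (log2 2.38 ± 0.32 SE, edgeR, adjusted p = 2.99e-10), Vegfa (2.06 ± 0.22, adjusted p = 6.16e-14), Bnip3 (1.76 ± 0.25, adjusted p = 1.75e-09), Egln3 (1.71 ± 0.26, adjusted p = 1.91e-08) and Pdk1 (1.39 ± 0.21, adjusted p = 1.58e-08). It was negative for Ndrg1 (-3.66 ± 0.23, adjusted p = 7.47e-28) and Cox4i2 (-2.81 ± 0.56, adjusted p = 1.82e-05), the latter with 16 UMIs in all L endothelial nuclei. Of all genes 14.5% had a called positive and 11.3% a called negative difference, with a median of 0.11. Hif1a (0.49, adjusted p = 0.111) and Ankrd37 (0.46, adjusted p = 0.556) were not called. From CS to PH it was positive for 5 members and negative for 1 (13.3% and 6.71% of all genes), with Vegfa, which fell in hepatocytes and rose in endothelial nuclei, at 2.16 and Ndrg1 at -2.02 farthest apart. From L to CS it was negative for 1 member, Ndrg1 (-1.65, adjusted p = 2.86e-06), and positive for none (2.19% and 0.608% of all genes). In hepatocytes of L and CS, Ndrg1 lay above free RNA per Alb UMI in 0 of 8 samples each. From CS to PH the call of Bnip3 (0.86, adjusted p = 0.0239) was lost with RLE scaling (adjusted p = 0.143), with PH nuclei annotated as cultured only (0.72, adjusted p = 0.0717) and without any one mouse other than mouse 4 (0.36 to 0.85, adjusted p = 0.0631 to 0.523), and with library totals those of Bnip3, Pdk1 and Slc2a1 were lost (adjusted p = 0.731, 0.389 and 0.0683) while Cox4i2 was called (-2.10, adjusted p = 0.00903), as it was without mouse 2, 3, 4, 6 or 7 (-2.15 to -1.68, adjusted p = 0.00548 to 0.0337), with RLE scaling (-1.67, adjusted p = 0.0437) and with PH nuclei annotated as cultured only (-1.76, adjusted p = 0.0248).

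Because oxygen falls along the lobule, members were compared between hepatocytes of the pericentral and periportal ends. Nuclei with at least 20 UMIs of 20 zone markers, none of them a member, were ordered within each sample by the share of pericentral markers (such as Cyp2e1 and Glul) and split into 3 equal classes, and the outer classes were compared with the sample as a block. In L, Egln3, Ndrg1, Cox4i2 and Slc2a1 were higher and Hif1a and Vegfa lower at the pericentral end, while of 21994 genes 10.7% were higher and 10.4% lower. In CS, Egln3, Ndrg1 and Slc2a1 were higher and none lower, while of 19195 genes 9.39% were higher and 8.28% lower. PH nuclei were not ordered. Zone is graded, and 35.9% to 72.8% of nuclei per sample lay within 5 percentage points of a class boundary. The pericentral class began at a share of 9.72% to 48.2% pericentral among zone marker UMIs, so the class names are relative within a sample.

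Egln3 had the steepest gradient of the members. In L it stood at 19.1 to 54.5 CPM in pericentral nuclei and at 3.49 to 17.4 in periportal nuclei, higher in 8 of 8 samples by 4.63-fold (log2 2.21 ± 0.10 SE, edgeR, adjusted p = 4.05e-16), and in CS at 22.8 to 82.3 against 2.51 to 16.55, by 6.15-fold (2.62 ± 0.14, adjusted p = 7.58e-28). Ndrg1 followed in L at 5.92 ± 2.73 CPM against 1.79 ± 2.15 (SD, n = 8), 3.21-fold and higher in 8 of 8 samples (log2 1.68 ± 0.26 SE, adjusted p = 1.32e-05), and in CS by 1.06 ± 0.17 (adjusted p = 4.25e-07). Per Alb UMI, Ndrg1 lay above the free RNA of its pool in 0 of 8 hepatocyte samples of L and of CS, Egln3 in 2 of 8 of L and 1 of 8 of CS, Slc2a1 in 3 of 8 and 2 of 8, and Cox4i2 in 6 of 8 and 2 of 8. Of 9 endothelial markers, 1 was higher and 0 lower at the pericentral end in L, about the share of all genes (10.7% and 10.4%), and 5 were higher and 0 lower in CS (9.39% and 8.28%). The part of free or endothelial RNA in the zone differences was not tested. Slc2a1 was 1.44-fold higher in L (0.52 ± 0.10, adjusted p = 0.000233), in 7 of 8 samples, and differed by 0.75 ± 0.17 in CS (adjusted p = 0.000265), in 6 of 8. Cox4i2 in L rested on 55 UMIs (1.25 ± 0.45, adjusted p = 0.0464) and was lost with 2 classes in place of 3 (adjusted p = 0.062) and without any one of mice 2 to 7 (0.99 to 1.28, adjusted p = 0.0572 to 0.172).

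Hif1a and Vegfa ran the other way in L and were lower at the pericentral end in 7 of 8 samples each, Hif1a at 11.7 ± 1.14 against 15.2 ± 3.72 CPM (log2 -0.37 ± 0.10 SE, edgeR, adjusted p = 0.00499) and Vegfa at 193 ± 42.5 against 221 ± 38.9 (-0.21 ± 0.06, adjusted p = 0.00635). In CS neither was called (0.22 and 0.16, adjusted p = 0.307 and 0.278), and without mouse 5 the Vegfa call in L was lost (adjusted p = 0.0507). Without the sample as a block only Egln3 and Ndrg1 kept their calls in L, and in CS that of Ndrg1 was lost (adjusted p = 0.165). Pdk1 (0.17, adjusted p = 0.0835), Bnip3 (0.06, adjusted p = 0.628) and Ankrd37 (-0.00, adjusted p = 0.998) were not called in L, though Pdk1 was with 2 classes (0.16, adjusted p = 0.0483) and without mouse 3 (0.20, adjusted p = 0.0445) or mouse 7 (0.24, adjusted p = 0.00589).

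**Figure D3:**
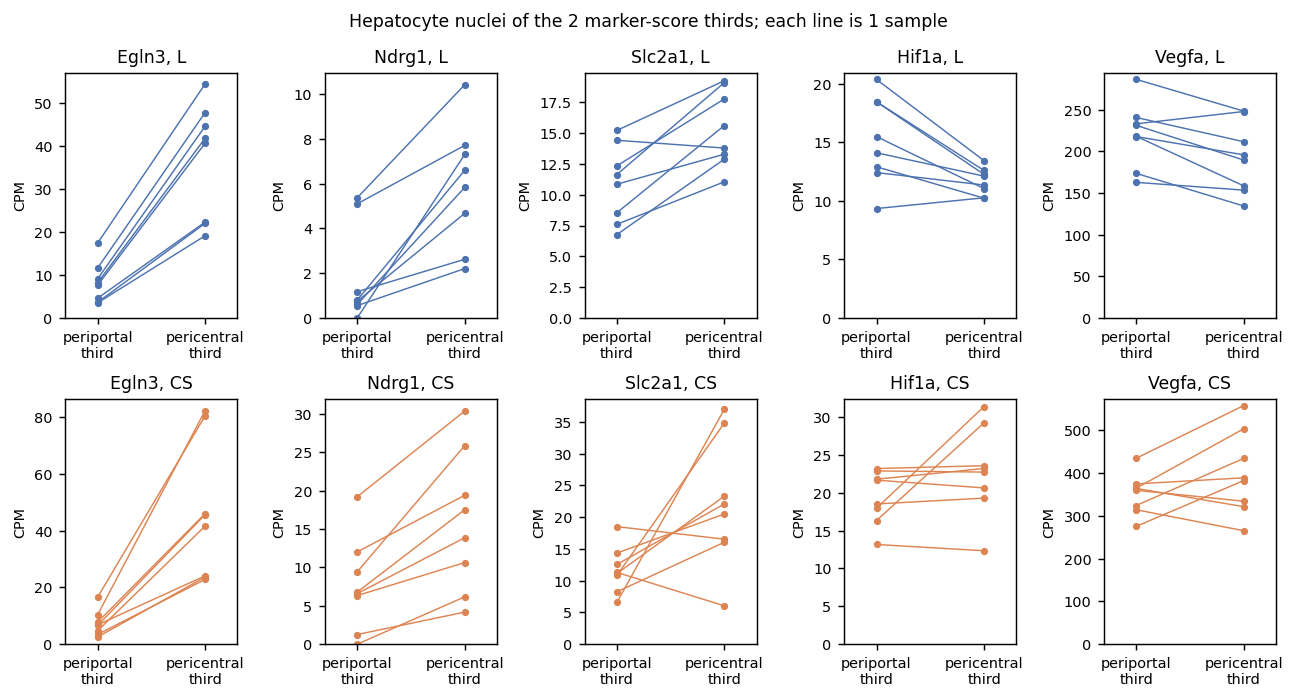
Level of 5 members in periportal and pericentral hepatocyte nuclei, in CPM of the class total after TMM scaling, with L in the upper and CS in the lower row. Each line joins the classes of 1 sample. Egln3 rises towards the pericentral end in 8 of 8 samples of each row, and Vegfa falls in 7 of 8 L samples.

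Since nuclei hold both new and processed RNA, the unspliced share of a gene's UMIs was compared between groups in hepatocytes with an exact permutation test, for samples with at least 20 UMIs of the gene. The share of all genes fell from 74.5% in L to 66.9% in CS and 64.7% in PH, so changes of members are to be read against that. The share was lower in PH than in L for Vegfa, Bnip3, Slc2a1, Ankrd37, Egln3 and Pdk1, of which Egln3 (-10.6 points) and Pdk1 (-10.2 points) fell by about as much as all genes together. Ndrg1 and Hif1a, which had no unspliced UMI, were not called. How many of all genes pass this test was not computed.

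Vegfa had an unspliced share of 28.6% ± 2.76 in L, 30.9% ± 3.29 in CS and 15.0% ± 2.73 in PH (SD, n = 8), a fall of 13.6 points from L to PH (two-sided exact permutation test, p = 0.000155, the smallest 8 against 8 allow, adjusted p = 0.00057 over 22 tests, 3 of them of Hif1a with no unspliced UMI). Its share did not fall from L to CS (2.35 points, exact permutation test, adjusted p = 0.185), although its level rose there. Bnip3 went from 88.5% ± 1.76 to 77.0% ± 3.32 and 68.1% ± 7.50, Slc2a1 from 84.6% ± 3.77 to 75.5% ± 6.69 and 69.4% ± 3.86, and Egln3 from 94.2% ± 2.70 to 86.8% ± 3.74 and 83.6% ± 4.32. In these 3 members the larger step was from L to CS, of -11.5, -9.18 and -7.42 points (exact permutation test, largest adjusted p = 0.00912), and from CS to PH a further fall passed the test for Bnip3 (adjusted p = 0.00746) but not for Egln3 or Slc2a1 (adjusted p = 0.184 and 0.0667). The share of all genes went from 74.5% to 66.9% over the step from L to CS.

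Pdk1, whose level was not called, fell in unspliced share from 61.2% ± 2.19 in L to 55.4% ± 4.53 in CS and 50.97% ± 2.98 in PH (SD, n = 8). Its step from L to CS was -5.83 points (exact permutation test, adjusted p = 0.00444). That from CS to PH, of -4.40 points, did not pass (exact permutation test, adjusted p = 0.0667). Ankrd37 fell from 61.8% ± 4.52 (n = 6) in L to 45.5% ± 4.87 in PH (exact permutation test, adjusted p = 0.000916). Ndrg1 stood at 75.9% ± 5.86 (n = 7) in L, 72.4% ± 5.11 (n = 7) in CS and 76.2% ± 1.28 in PH, a difference from L of 0.287 points (exact permutation test, p = 0.892) beside a level 82.6-fold higher. Per Alb UMI, Ndrg1 in L and CS hepatocytes lay above free RNA in 0 of 8 samples each. The part of free RNA in its L and CS shares was not tested. Cox4i2 in PH was almost wholly unspliced, with 14428 of 14503 UMIs. Hif1a had 0 unspliced UMIs in every group, next to 6247 spliced and 3145 ambiguous in PH, and the same held for 500 of 13020 genes with at least 1000 UMIs (3.84%), so its unspliced RNA is listed at 0 and was not read as absent.

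**Figure D4:**
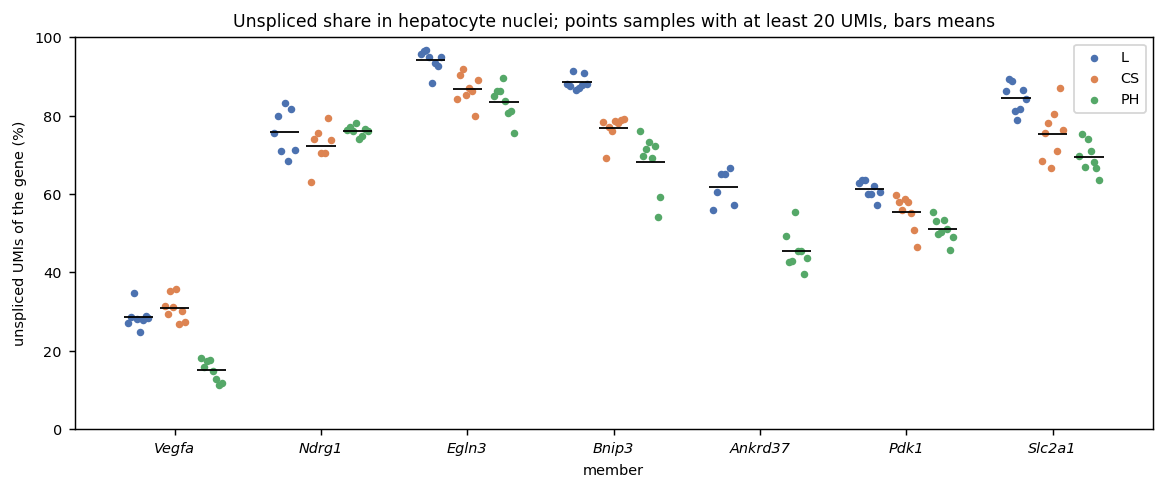
Unspliced share of the UMIs of 7 members in hepatocyte nuclei of each sample with at least 20 UMIs of the gene, in percent, by group, with bars at the group means. Vegfa drops between CS and PH, Bnip3, Slc2a1, Egln3 and Pdk1 drop already in CS, and the means of Ndrg1 lie between 72.4% and 76.2%.

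Within PH, the members differed between the clusters of cultured nuclei, which is given as a description because the clusters were made from the same counts. Hepatocyte clusters 0, 1, 14 and 17 held 5961, 5846, 1682 and 1271 nuclei. Ndrg1 stood at 298 ± 63.3 CPM in cluster 0 and 728 ± 196 in cluster 1, while Cox4i2 was at 95.7 ± 22.2 and 124 ± 24.9 in these and at 366 ± 107 in cluster 14 (SD over samples). Cluster 17 held the highest means of these clusters for Hif1a (135 ± 30.8), Vegfa (375 ± 85.6), Pdk1 (184 ± 23.4), Slc2a1 (134 ± 25.3) and Ankrd37 (29.8 ± 11.4 CPM), and the lowest for Cox4i2 (65.3 ± 17.5). Thus 5 of 9 members had their highest mean in cluster 17, Cox4i2, Egln3 and Bnip3 in cluster 14 and Ndrg1 in cluster 1. The share of all genes with their highest mean in cluster 17 is not given here, so the count is not read as particular to the members. Alb was also highest there, at 1942 CPM, next to 1195, 1359 and 1340 CPM in clusters 0, 1 and 14. Cluster 17 had the lowest median depth of these, at 4871 UMIs per nucleus.

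Around the members, the oxygen sensing genes of hepatocytes moved in both directions. Of 9 genes listed, 5 rose from L to PH and 4 fell, where of all genes 27.4% rose and 26.7% fell, and from L to CS 2 rose and 1 fell, where of all genes 7.69% rose and 13.8% fell. Epas1, which encodes the HIF-2 alpha subunit, rose with Hif1a from L to CS (log2 0.66, edgeR, adjusted p = 0.00804) and fell in PH where Hif1a rose. It stood at 254 ± 75.3 CPM in L, 401 ± 107 in CS and 103 ± 24.2 in PH (SD, n = 8), a fall of 1.31 on the log2 scale from L to PH (edgeR, adjusted p = 3.76e-07), and in endothelial nuclei it fell by 2.07 (499 ± 29.98 to 121 ± 31.7 CPM, adjusted p = 1.19e-14). Egln1, which encodes the main HIF prolyl hydroxylase, rose with Egln3, from 25.7 ± 5.52 to 99.4 ± 19.5 CPM (log2 1.96, adjusted p = 3.61e-13). Cited2, which encodes a protein that competes with HIF for its coactivator, stood at 12.7 CPM in L, 28.2 in CS and 34.4 in PH, and both differences from L were called.

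In the VEGF family around Vegfa, 6 of 8 genes fell from L to PH in endothelial nuclei and 1, Pgf, rose (18.4% and 15.4% of all genes). Pgf, which encodes placental growth factor, went from 0.130 to 40.6 ± 23.3 CPM (log2 6.51, edgeR, adjusted p = 8.55e-15). The receptor genes Kdr (783 ± 165 to 132 ± 107 CPM), Nrp1 (1789 to 389), Nrp2 (675 to 253), Flt4 (469 to 197) and Flt1 (743 to 529) fell, and so did the ligand Vegfc (191 to 48.9). In hepatocytes 3 of the 8 (Pgf, Flt1 and Flt4) rose and 4 (Kdr, Nrp1, Nrp2 and Vegfc) fell, where of all genes 27.4% rose and 26.7% fell. The 9 endothelial markers in these nuclei summed to 33.5 to 53.3 CPM in L and 84.5 to 112 in PH. Of them 4 rose and 2 fell. The part of endothelial RNA in the hepatocyte values of this family was not tested.

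Of 8 paralogues of the members in hepatocytes, 3 (Bnip3l, Pdk3 and Pdk4) rose from L to PH and 5 fell, with a median of -0.88, where of all genes 27.4% rose and 26.7% fell. Slc2a2, which encodes the glucose transporter GLUT2 of the adult hepatocyte, fell by 4.76 on the log2 scale (276 ± 55.3 to 10.2 ± 4.19 CPM, edgeR, adjusted p = 2.31e-17) beside the rise of Slc2a1. Ndrg2 fell by 4.70 (319 ± 54.4 to 12.3 ± 2.83 CPM, adjusted p = 1.1e-20) beside that of Ndrg1, Ndrg3 fell by 2.30 and Pdk2 fell by 1.45. Cox4i1, which encodes the common isoform beside Cox4i2, stood at 34.0 CPM in L and 27.6 in PH. Bnip3l rose with Bnip3 (45.2 to 85.9 CPM, log2 0.93), and Pdk4 stood at 5.94 CPM in L, 73.9 ± 92.2 in CS and 27.6 in PH.

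**Figure D5:**
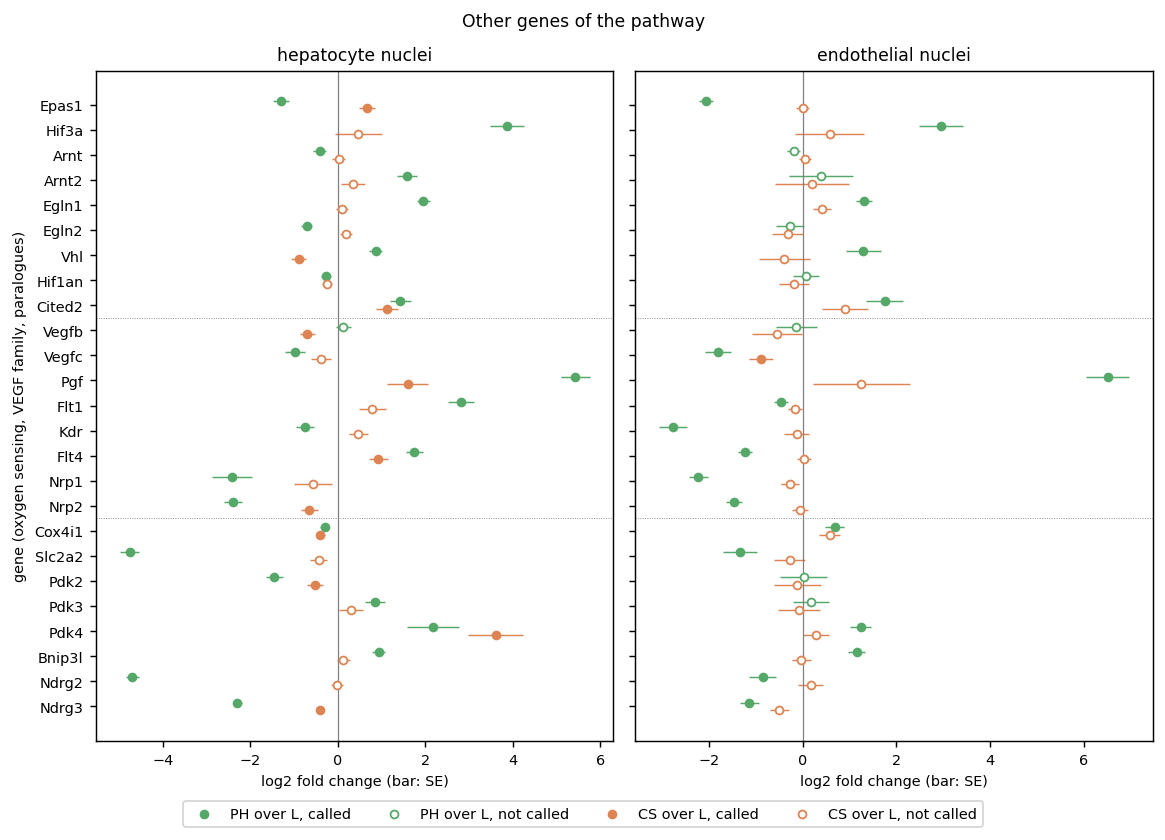
Log2 difference with its SE of the oxygen sensing genes, the VEGF family and the paralogues of members, for PH over L (green) and CS over L (orange), in hepatocyte nuclei and in endothelial nuclei. Filled points were called. Slc2a2 and Ndrg2 lie far to the left and Pgf far to the right in hepatocytes.

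A list of 44 further HIF target names, of which 42 were in the files, was set beside the members. In hepatocytes 32 of 42 rose from L to PH and 2 fell, with a median of 1.56 (27.4% and 26.7% of all genes, median 0.04), and 17 rose and 1 fell from L to CS (7.69% and 13.8% of all genes), of which 5 calls in all were made within pools 1 and 6. Pkm, a glycolytic enzyme gene, went from 1.48 CPM in L to 226 in PH. Bhlhe40, which encodes a transcriptional repressor, moved like Vegfa, at 136 CPM in L, 623 in CS and 55.2 in PH. In endothelial nuclei 31 of 40 rose from L to PH and 1 fell (15.4% and 18.4% of all genes), among them Hilpda, a lipid droplet gene (0.851 to 43.5 CPM), and Adm, which encodes the vessel-dilating peptide adrenomedullin (2.25 to 71.7), and the gene that fell was Slc2a3. In the zone comparison 5 of 40 of these targets were higher and 10 lower at the pericentral end in L (10.7% and 10.4% of all genes).

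Across the 24 hepatocyte samples, the genes most like each member by Pearson correlation of log2(CPM + 1) over 8601 genes were, as a description that the group differences largely set, Aldoa, Pkm and Creb5 for Hif1a (0.980, 0.976 and 0.976). For Ndrg1 they were Pkm, Cstb and Sprr1a (0.9916, 0.9898 and 0.9898), for Cox4i2 Iqgap1, Gm47507 and Akap2 (0.993, 0.992 and 0.991) and for Slc2a1 Anxa5, Capn2 and Tpm1 (0.977, 0.976 and 0.973). Vegfa was most like Hmgb1, 9530052E02Rik and Pim3 (0.918, 0.907 and 0.899), Egln3 most like Airn, Tmem184b and Gclc (0.897, 0.889 and 0.876) and Bnip3 most like Ostf1, Sav1 and Dars (0.895, 0.884 and 0.875). Pdk1 had no close match, the highest being Cry2, Ccdc57 and Asrgl1 (0.701, 0.691 and 0.685).

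The members lie on 7 chromosomes of GRCm38 (GENCODE vM21). Hif1a lies at chr12:73901375-73947530 on the plus strand and Egln3 at chr12:54178981-54203860 on the minus strand, and Cox4i2 (chr2:152754173-152765037) and Pdk1 (chr2:71873224-71903858) share chromosome 2. Vegfa lies at chr17:46016993-46032369, Ndrg1 at chr15:66929318-66969640, Bnip3 at chr7:138890836-138909519, Ankrd37 at chr8:45996902-46005707 and Slc2a1 at chr4:119108711-119137983. No members neighbour each other closely.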

How the data were processed

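Nuclei were tagged with hashtag antibodies, sorted, pooled by 4 samples and sequenced with 10x 3′ v3.1 chemistry. Per the labels and the study's methods, base calls were made with bcl2fastq 2.19.0, the authors counted reads with Salmon Alevin and Alevin-fry against spliced and unspliced GRCm38 transcripts, assigned samples with mclust, removed doublets with scDblFinder and clustered in Seurat. The deposited values are raw UMI counts per nucleus. They were summed here per sample and cell type. Genes with at least 10 counts over all sums were tested with edgeR 4.0.16 (R 4.3.3, TMM scaling, quasi-likelihood, Benjamini-Hochberg over all genes, threshold 0.05, two-sided), by group over 8 mice. Levels per sample and group are TMM-scaled within a cell type. Levels in zones are TMM-scaled over the zone classes of L or of CS. Levels in clusters, other cell types, marker sums and free RNA use library totals. SE is the log2 difference divided by the square root of F. Comparisons between cell types and zones used the sample as a block. DESeq2 1.42.0 was an alternative. Scripts were tested on simulated data.

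Named were all members, the pathway and paralogue lists, the 3 largest called changes each way among other HIF targets at 10 CPM or more, and the 3 genes most like each member. One result named by this rule is not reported here. The members and lists were chosen with earlier results of these data known. Same-numbered samples come from the same mouse: deviations of the same mouse correlated between L and CS hepatocytes (0.436 to 0.903, median 0.761), little between L and PH (median 0.0610) or CS and PH (0.0305), and in endothelial nuclei at 0.151, 0.0223 and 0.0881. Counting error falls with depth, and the endothelial sums, at 95289 UMIs or more, are the least precise.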

Additional observations from a re-analysis of the deposited data

Results flagged for a closer look

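A sample lay far from the others of its group in 4 of 54 groups of member values, and chance gives about 1 in 20. These were Hif1a in CS hepatocytes of mouse 7 (16.1 CPM, low), Ankrd37 in L hepatocytes of mouse 5 (3.78 CPM, high), Bnip3 in PH endothelial nuclei of mouse 7 (17.9 CPM, low, from 29 nuclei) and Ankrd37 in CS endothelial nuclei of mouse 8 (13.8 CPM, high).

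The change of a member differed between endothelial nuclei and hepatocytes in 14 tests of the difference itself (edgeR, adjusted p of 0.05). From L to PH the endothelial change minus the hepatocyte change was 1.76 for Bnip3, -2.81 for Cox4i2, 1.71 for Egln3, -3.66 for Ndrg1, 1.39 for Pdk1, 2.38 for Slc2a1 and 2.06 for Vegfa on the log2 scale. From CS to PH it was 0.86 for Bnip3, 1.86 for Egln3, -2.02 for Ndrg1, 0.96 for Pdk1, 1.53 for Slc2a1 and 2.16 for Vegfa, and from L to CS -1.65 for Ndrg1, whose hepatocyte level per Alb UMI lay above free RNA in 0 of 8 samples of L and of CS. Hepatocyte markers in endothelial nuclei stood at a median of 24.3% of their hepatocyte level in L, 23.6% in CS and 75.8% in PH, and their part in these differences was not tested. Cox4i2 had only 16 UMIs in all L endothelial nuclei.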

How the results depend on the processing

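Over all alternatives 1973 member values kept their side of the threshold with no called value changing sign, 74 lost a call, 28 gained one and 2 were counted as reversed: in unspliced counts Vegfa in endothelial nuclei from CS to PH (-0.090) and Slc2a1 in endothelial nuclei over hepatocytes in PH (-0.90). Uncalled values could change sign, as with library totals Vegfa in hepatocytes from L to PH (0.34) and Hif1a in endothelial nuclei over hepatocytes in L (0.23). The member counts from L to PH and CS to PH kept within 1.5 times in both cell types. The cause of the shifts below was not tested.

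From L to CS, the 5 members called in hepatocytes became 3 in unspliced counts, where Hif1a has no UMI and could not be called, 2 with an absolute log2 difference of at least 1 and 1 within pools 1 and 6, where the 18 other HIF targets called became 5. In endothelial nuclei the 2 called became 0 with pool as a covariate, in unspliced counts and within pools 1 and 6, 1 in spliced counts (Bnip3, with Vegfa and Hif1a lost), and 1 with thinning, with nuclei of at least 1000 UMIs, with library totals and with the limit of 1. They ranged from 0 to 2 without a mouse in turn, 0 without mouse 3 or 8. The 7 other targets became 0 with pool as a covariate and within pools 1 and 6, 3 in unspliced counts and 2 with thinning, and ranged from 2 to 8 without a mouse, lowest without mouse 1. Of endothelial over hepatocyte differences in CS, 6 became 3 with library totals. The single difference between cell types from L to CS became 2 without mouse 8 (range 1 to 2). In the L zones 6 became 2 with no replicate block. Mouse as a replicate block changed 1 member call, that of Bnip3 in hepatocytes from L to CS (-0.55), and no other. Alternatives with library totals, pools 1 and 6, UMI minimum, unnamed cluster and annotation were chosen after seeing the data.

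Scaling moved the share of calls that were higher. In hepatocytes it was 50.7% from L to PH (74.1% with library totals), 53.5% from CS to PH (79.8%) and 35.8% from L to CS (18.5%, and 47.1% with RLE). In endothelial nuclei it was 45.6% (55.8%, RLE 57.0%), 46.7% (63.8%) and 52.1% (RLE 69.0%). For endothelial over hepatocytes it was 38.1% in L (60.6%) and 33.3% in CS (63.7%, RLE 48.1%), and for the difference of changes 56.2% (31.3%), 66.5% (28.6%, RLE 53.2%) and 21.7% (50.7%, RLE 38.6%).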

Other observations

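Members in the rarer cell types were described with library totals and no test. In L, Ndrg1 stood at 214 ± 83.8 CPM in mesothelial-like nuclei (103 to 306, SD, n = 4, 157 nuclei), next to 12.9 ± 10.5 in stellate nuclei and 5.62 in Kupffer nuclei. In the 192 stellate nuclei of PH, Ndrg1 stood at 316 ± 86.7 CPM and Cox4i2 at 77.2, next to 331, 269 and 155 CPM and 85.8, 68.4 and 28.2 CPM in the free RNA of pools 3, 4 and 5. Slc2a1 (98.3 CPM) and Vegfa (362 ± 146 CPM) in these nuclei stood next to 37.0 to 81.6 and 260.2 to 333 CPM in that free RNA. In pool 2, which also held a PH sample, free RNA stood at 59.2 CPM for Ndrg1, 5.22 for Cox4i2, 26.1 for Slc2a1 and 263 for Vegfa. None of the 4 is read as stellate expression here, and the source of this RNA was not tested. Pdk1 in L leukocytes was at 82.3 ± 33.8 CPM, and Slc2a1 in L Kupffer cells at 17.8 ± 9.41.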
